A study of Mus musculus with 18 samples.

Results

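The 7 genes Psma1 to Psma7, which encode the alpha subunits of the 20S proteasome, were followed in NIH-3T3 cells treated with the proteasome inhibitor carfilzomib (CFZ). They are the rows of the deposited count table that carry these symbols, 7 of its 23420 genes, and all 7 passed the filter on low counts. NIH-3T3 is an immortalized mouse fibroblast line. The wild-type (WT) cells were compared with an Nrf1 knockout (Nrf1KO) line of the same cells made with CRISPR/Cas9. The question here was how the 7 genes respond to CFZ when Nrf1 is missing. RNA-sequencing was done on 18 libraries, 3 in each of 6 groups. In each line these were cells given DMSO, the vehicle, cells given 200 nM CFZ for 6 h and cells given 200 nM CFZ for 24 h. No time is stated for the DMSO cells, so 1 DMSO group per line stands against both CFZ times, and the 2 CFZ comparisons of a line share their controls. Each genotype is a single cell line, so a difference between the lines cannot be told apart from other differences between these 2 lines. The libraries of a group are described as biological replicates.

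The 20S proteasome is the barrel that degrades proteins, and it is built from stacked rings. The outer rings are made of alpha subunits and the inner rings of beta subunits, some of which carry the catalytic sites that CFZ blocks irreversibly. The alpha ring has no catalytic site. It assembles first, serves as the platform for the beta ring, holds the pockets into which the 19S cap docks, and closes the entrance with the N-terminal tails of its subunits. In ring order the subunits are Psma6, Psma2, Psma4, Psma7, Psma5, Psma1 and Psma3, with Psma3 next to Psma6 again. Nrf1, listed as Nfe2l1 in the table, is a transcription factor anchored in the endoplasmic reticulum membrane that is known to drive proteasome genes when the proteasome is inhibited, through antioxidant response elements.

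On GRCm38 (GENCODE release M21) the 7 genes lie on 6 chromosomes, Psma6 at chr12:55384222-55418454, Psma2 at chr13:14613240-14674236, Psma4 at chr9:54950790-54958030, Psma7 at chr2:180036374-180042433, Psma5 at chr3:108256926-108279974, Psma1 at chr7:114264606-114276118 and Psma3 at chr12:70974621-70996347. Psma7 and Psma1 are on the minus strand and the other 5 on the plus strand. The build behind the deposited counts is not given in the sources used here, so these positions only place the genes.

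Since the 7 genes moved together in the WT cells, their promoters were searched for shared motifs. RefSeq windows of 300 bases on GRCm38.p6, from 250 bases before the transcription start to 50 after it, matched all 7 genes, and Psma6 has 2 windows. The strict antioxidant response element TGACNNNGC was in 12.4% of all 32851 windows, on either strand, and in 0 of the 8 windows of the alpha ring. The looser form TGANNNNGC, which contains the strict form, was in 41.3% of all windows and in 5 of the 8, those of Psma4, Psma5, Psma7 and both of Psma6. The CCAAT box was in 37.4% of all windows and in 5 of the 8, those of Psma1, Psma2, Psma3 and Psma7 and 1 of Psma6. Printed here, 5′ to 3′ on the gene's strand, are the windows of the 3 genes with the highest fold changes at 6 h in the WT cells (Psma1, Psma7 and Psma5) and of Psma4, the member that fell at both times in the Nrf1KO cells. Capitals mark the looser element in either orientation. The windows are Psma1 at chr7:114276067-114276366 (minus strand), Psma7 at chr2:180042415-180042714 (minus strand), Psma5 at chr3:108256676-108256975 (plus strand) and Psma4 at chr9:54950609-54950908 (plus strand).
Psma1: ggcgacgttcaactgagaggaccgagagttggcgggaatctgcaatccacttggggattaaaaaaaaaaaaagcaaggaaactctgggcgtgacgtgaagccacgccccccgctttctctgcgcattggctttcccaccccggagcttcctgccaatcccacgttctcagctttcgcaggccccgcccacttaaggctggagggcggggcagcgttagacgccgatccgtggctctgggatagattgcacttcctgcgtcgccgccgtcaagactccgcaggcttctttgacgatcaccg
Psma7: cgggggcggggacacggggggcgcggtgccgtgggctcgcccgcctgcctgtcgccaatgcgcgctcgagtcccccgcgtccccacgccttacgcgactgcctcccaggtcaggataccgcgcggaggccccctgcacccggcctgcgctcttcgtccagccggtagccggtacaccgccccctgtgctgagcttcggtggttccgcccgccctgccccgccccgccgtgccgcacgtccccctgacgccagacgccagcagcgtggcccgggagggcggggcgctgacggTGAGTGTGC
Psma5: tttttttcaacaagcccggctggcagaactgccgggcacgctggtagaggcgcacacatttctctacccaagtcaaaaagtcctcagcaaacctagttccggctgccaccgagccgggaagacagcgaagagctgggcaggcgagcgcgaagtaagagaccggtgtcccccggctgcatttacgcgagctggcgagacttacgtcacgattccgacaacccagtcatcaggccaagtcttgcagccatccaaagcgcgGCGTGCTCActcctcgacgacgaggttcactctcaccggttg
Psma4: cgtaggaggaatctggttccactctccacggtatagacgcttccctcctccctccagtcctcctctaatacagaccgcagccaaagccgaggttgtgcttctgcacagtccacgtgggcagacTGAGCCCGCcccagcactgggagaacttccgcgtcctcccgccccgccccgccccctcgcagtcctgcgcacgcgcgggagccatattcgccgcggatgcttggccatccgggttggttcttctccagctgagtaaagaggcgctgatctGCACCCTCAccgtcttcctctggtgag
Counting the start base as 1 and the base before it as -1, the match in Psma7 begins at position 42 and that in Psma5 at 9, both downstream of the start. Psma4 has a match at -127 and another at 24, and the window of Psma1 holds none. A match of these letters is a description and not a binding site, and this search says nothing of elements outside the windows.

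The depth of the libraries was 8333148 to 23917081 counts, and a member had from 667 to 5969 counts in a library. Levels are given as TMM-scaled CPM, the counts of a gene put on a common library size. TMM scaling rests on the assumption that most genes do not change, so a level is relative to the rest of the mRNA of its library. Nfe2l1 was read first as a check of the labels. It stood at 457, 437 and 449 CPM in the WT DMSO libraries, at 650.4, 648 and 628 at 6 h and at 559, 555 and 580.0 at 24 h. The Nrf1KO libraries had 174, 185 and 181, 413, 416 and 427 and 209.5, 202 and 201 CPM, so every Nrf1KO library lay below every WT library, and transcript was still counted there. Each of the 18 libraries was closest to a library of its own group. Of the 10 fibroblast markers listed, 9 were over 1 CPM in every library, Lum being the exception. Markers of epithelial, endothelial, blood and muscle cells, each set summed on its own, came to at most 13.0 CPM in a library, Epcam and Krt18 being at 0 throughout. The summed fibroblast markers were far lower at 24 h of CFZ, at 8102 to 8396 CPM in the WT and 10848 to 12876 CPM in the Nrf1KO cells, against 32889 to 35742 and 27435 to 33707 in DMSO. Their part in the results at 24 h was not tested. In bulk RNA, fewer cells that express a gene and less of its RNA per cell cannot be told apart.

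In the WT cells CFZ raised all 7 alpha ring genes, by 1.80- to 2.72-fold at 6 h and by 1.80- to 3.27-fold at 24 h. In the Nrf1KO cells no member changed by more than 1.28-fold in either direction, 1 was called higher and 2 lower at 6 h, and 4 were called higher and 1 lower at 24 h. A gene is called where edgeR's quasi-likelihood test gives it a Benjamini-Hochberg adjusted p under 0.05 over 11762 genes, with no minimum fold. Many genes pass that rule here, and the counts are to be read against it. At 6 h 35.6% of all genes tested were called higher in the WT cells, and 34.5% were called higher and 35% lower in the Nrf1KO cells. At 24 h 43.2% were called higher in the WT cells, and 44.4% were called higher and 41.1% lower in the Nrf1KO cells. Beside these shares the counts in the Nrf1KO cells are no result about the 7 genes, while 7 of 7 in the WT cells lies well above the share at either time.

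**Figure D1:**
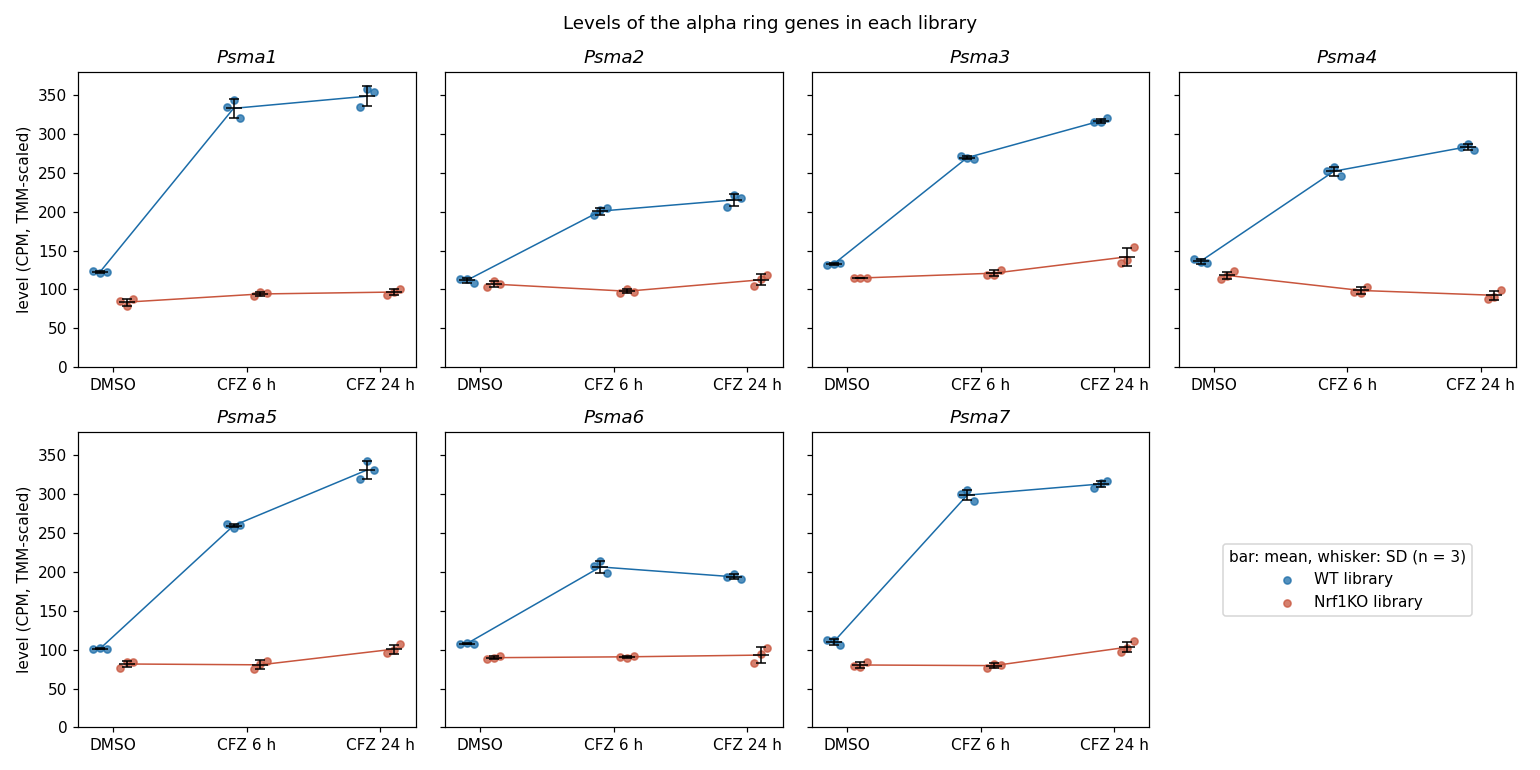
Level in TMM-scaled CPM (vertical axis) of each alpha ring gene in each of the 18 libraries, by treatment (horizontal axis). Dots are libraries, blue for WT and red for Nrf1KO, black bars the mean and whiskers the SD of 3 libraries. The WT libraries rise from 101 to 139.7 CPM in DMSO to at least 190.5 CPM after CFZ for all 7 genes, and the Nrf1KO libraries stay at or under 155 CPM.

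Psma6 is next to Psma2 and Psma3 in the ring. Its level was 108, 108 and 107 CPM in the 3 WT DMSO libraries, 207, 214 and 198 at 6 h of CFZ and 194, 197 and 190.5 at 24 h. Its Nrf1KO levels were 88.1, 89.3 and 91.8 in DMSO, 90.5, 89.7 and 92.3 at 6 h and 82.5, 94.0 and 103 at 24 h. Psma6 was the only member whose highest group was WT at 6 h rather than at 24 h, and its Nrf1KO group at 6 h overlapped with both other Nrf1KO groups. It rose in the WT cells 1.92-fold at 6 h (log2 0.94, standard error 0.045, edgeR adjusted p = 3.6e-18) and 1.80-fold at 24 h, the smallest rise of the 7 at that time (log2 0.85, standard error 0.045, edgeR adjusted p = 1.8e-17). The Nrf1KO log2 fold change was 0.01 at 6 h (95% interval -0.09 to 0.11) and 0.05 at 24 h (-0.04 to 0.15), neither past the threshold, and both turned negative with upper-quartile scaling (-0.061 and -0.056).

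Psma2 lies between Psma6 and Psma4. It stood at 114, 114 and 108 CPM in WT DMSO, 196, 202 and 204 at 6 h and 207, 221 and 218 at 24 h. The Nrf1KO libraries had 103, 111 and 107 in DMSO, 95.5, 101 and 97.0 at 6 h and 105, 113 and 119 at 24 h. This gene had the narrowest range of the 7, the highest group mean being 2.20 times the lowest, and WT DMSO overlapped with both Nrf1KO DMSO and Nrf1KO at 24 h. It rose 1.80-fold at 6 h in the WT cells, the smallest rise of the 7 at that time (log2 0.84, standard error 0.040, edgeR adjusted p = 2.5e-18), and 1.93-fold at 24 h (log2 0.95, standard error 0.040, edgeR adjusted p = 2.9e-20). Psma2 was called lower in the Nrf1KO cells at 6 h, by 1.09-fold (log2 -0.13, standard error 0.044, edgeR adjusted p = 0.0099). That call was lost without Nrf1KO CFZ 6 h replicate 1 (log2 -0.11, edgeR adjusted p = 0.0590) or without Nrf1KO DMSO replicate 2 (log2 -0.11, edgeR adjusted p = 0.0501). At 24 h the log2 fold change of Psma2 was 0.07 (95% interval -0.01 to 0.15), not past the threshold, and it turned negative with library size alone (-0.11) or upper-quartile scaling (-0.035).

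Psma4 encodes the subunit whose N-terminal tail is central to closing the entrance of the barrel. Its level in the WT cells was 139.7, 136 and 134 CPM in DMSO, 252, 258 and 246 at 6 h and 284, 288 and 279.5 at 24 h. Nrf1KO cells went the other way, with 114, 117 and 123 CPM in DMSO, 96.9, 96.0 and 103 at 6 h and 87.9, 90.5 and 99.0 at 24 h. Psma4 was the only member whose highest Nrf1KO group was DMSO and whose lowest was 24 h of CFZ, and both CFZ groups lay under DMSO without overlap. It rose 1.85-fold at 6 h (log2 0.89, standard error 0.038, edgeR adjusted p = 2.4e-19) and 2.08-fold at 24 h in the WT cells (log2 1.06, standard error 0.038, edgeR adjusted p = 5.4e-22). Psma4 fell in the Nrf1KO cells, 1.20-fold at 6 h (log2 -0.27, standard error 0.043, edgeR adjusted p = 2.1e-06) and 1.28-fold at 24 h (log2 -0.36, standard error 0.041, edgeR adjusted p = 2.6e-09). Both falls were called in all 13 alternative fits, at log2 -0.38 to -0.23 at 6 h and -0.54 to -0.32 at 24 h. Of the exonic bases of Psma4, 4.81% overlap AY074887 on the opposite strand, a gene with at most 0.28 CPM in any library. Of the stretches of the longest coding Psma4 transcript as long as a read, 5.48% are shared with Gm6542, which has no row in the table.

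Psma7 lies next to Psma4, and cells can also build an alternative ring in which an extra Psma7 takes the place of Psma4. It stood at 112, 112 and 106 CPM in WT DMSO, 300.3, 305 and 291 at 6 h and 309, 314 and 317 at 24 h. Nrf1KO levels of Psma7 were 79.0, 77.6 and 84.4 in DMSO, 76.4, 82.2 and 80.0 at 6 h and 97.2, 102 and 111 at 24 h. Among the Nrf1KO libraries at 24 h only replicate 3 reached the range of WT DMSO, and the others lay under it. Psma7 rose 2.71-fold at 6 h (log2 1.44, standard error 0.040, edgeR adjusted p = 1.4e-24) and 2.84-fold at 24 h in the WT cells (log2 1.51, standard error 0.040, edgeR adjusted p = 1.2e-25). At 6 h the Nrf1KO log2 fold change was -0.02 (95% interval -0.11 to 0.07), not past the threshold. At 24 h it rose 1.28-fold, the largest rise of the 7 in that line (log2 0.36, standard error 0.044, edgeR adjusted p = 6.3e-09; 0.17 to 0.40 over 13 alternatives, called in all).

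Psma5 lies between Psma7 and Psma1. Its level was 101, 102 and 101 CPM in WT DMSO, 261, 257 and 261 at 6 h and 319, 343 and 332 at 24 h. The corresponding Nrf1KO levels were 77.0, 84.1 and 83.7 in DMSO, 74.5, 81.1 and 86.0 at 6 h and 95.4, 99.5 and 107 at 24 h. The 3 WT groups were each apart from the next, while Nrf1KO DMSO and Nrf1KO at 6 h overlapped. Psma5 rose in the WT cells 2.56-fold at 6 h (log2 1.36, standard error 0.042, edgeR adjusted p = 3.7e-23) and 3.27-fold at 24 h, the largest rise of the 7 (log2 1.71, standard error 0.042, edgeR adjusted p = 1.7e-26). Its Nrf1KO log2 fold change was -0.03 at 6 h (95% interval -0.13 to 0.07), not past the threshold, and it rose 1.23-fold at 24 h (log2 0.30, standard error 0.046, edgeR adjusted p = 4.3e-07; 0.12 to 0.32 over 13 alternatives, called in all). Of the exonic bases of Psma5, 4.54% overlap 1700010K24Rik on the opposite strand. Of the stretches of the longest coding Psma5 transcript as long as a read, 20.72% are shared with the pseudogenes Gm12989 and Gm8394. These pseudogenes have no row in the table, and how shared reads were assigned is not known.

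Psma1 lies between Psma5 and Psma3. It stood at 123, 122 and 123 CPM in WT DMSO, 335, 344 and 320.1 at 6 h and 334, 358 and 354 at 24 h. Without Nrf1 it stood at 85.2, 78.5 and 87.4 in DMSO, 91.2, 96.2 and 95.1 at 6 h and 93.4, 96.4 and 100.1 at 24 h. Psma1 had the widest range of the 7, the mean of WT at 24 h being 4.17 times that of Nrf1KO DMSO, and all 3 Nrf1KO groups lay under WT DMSO. It rose 2.72-fold at 6 h (log2 1.44, standard error 0.039, edgeR adjusted p = 5.2e-25) and 2.85-fold at 24 h in the WT cells, where the 2 times overlapped (log2 1.51, standard error 0.038, edgeR adjusted p = 4.7e-26). Psma1 was called higher in the Nrf1KO cells at 6 h, by 1.12-fold (log2 0.16, standard error 0.045, edgeR adjusted p = 0.0017), and at 24 h, by 1.15-fold (log2 0.20, standard error 0.043, edgeR adjusted p = 6.3e-05). The call at 6 h was lost with upper-quartile scaling (log2 0.090, edgeR adjusted p = 0.0736) and both were lost with library size alone (log2 0.052 and 0.021, edgeR adjusted p = 0.290 and 0.644).

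Psma3 closes the ring between Psma1 and Psma6. Its level was 131, 133 and 134 CPM in WT DMSO, 272, 269 and 268 at 6 h and 316, 315 and 320.4 at 24 h. Nrf1KO libraries gave 114, 115 and 115 in DMSO, 119, 118 and 125.2 at 6 h and 134, 137 and 155 at 24 h. The Nrf1KO libraries at 24 h overlapped with WT DMSO, and 1 of them lay well above the other 2. Psma3 rose 2.03-fold at 6 h (log2 1.02, standard error 0.039, edgeR adjusted p = 6.3e-21) and 2.39-fold at 24 h in the WT cells (log2 1.26, standard error 0.038, edgeR adjusted p = 5.5e-24). For Nrf1KO cells the log2 fold change was 0.07 at 6 h (95% interval -0.01 to 0.16), not past the threshold and slightly negative with library size alone (-0.040), and Psma3 rose 1.24-fold at 24 h (log2 0.31, standard error 0.040, edgeR adjusted p = 2.2e-08; 0.13 to 0.32 over 13 alternatives, called in all). Of the stretches of the longest coding Psma3 transcript as long as a read, 19.88% are shared with the pseudogene Gm13835. That pseudogene has no row in the table.

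**Figure D2:**
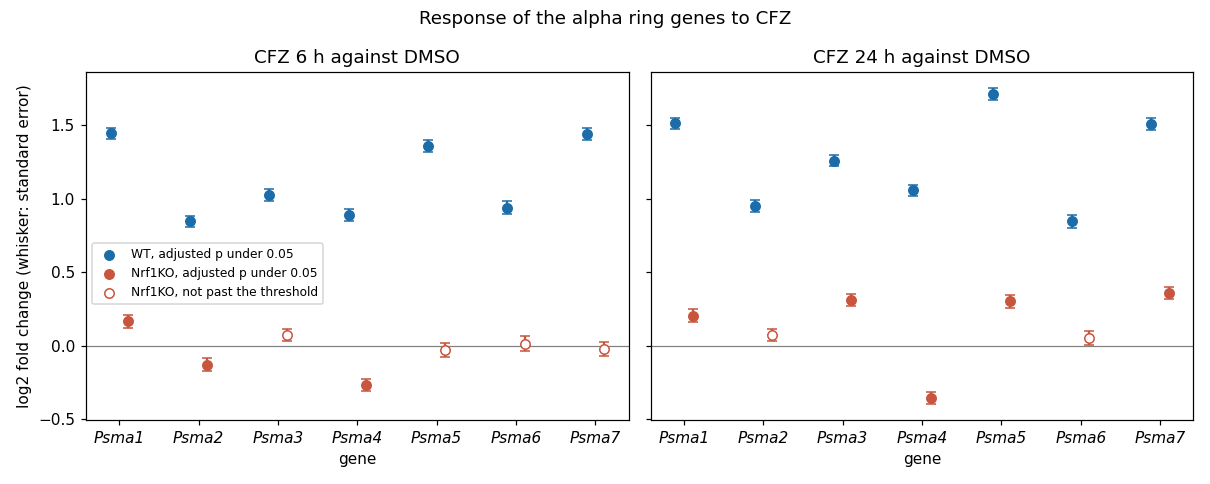
Log2 fold change of CFZ against DMSO (vertical axis) for each alpha ring gene (horizontal axis), at 6 h on the left and 24 h on the right, in WT (blue) and Nrf1KO cells (red). Points are edgeR estimates, whiskers standard errors, and open points did not pass an adjusted p of 0.05. All WT points lie between 0.84 and 1.71, and all Nrf1KO points between -0.36 and 0.36.

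The median log2 fold change of the 7 genes in the WT cells was 1.02 at 6 h and 1.26 at 24 h, beside -0.02 and 0.02 over all genes tested. With library size alone these medians of the 7 were 0.89 and 1.15, and that scaling moved the median of all genes by -0.13 and -0.10. In the Nrf1KO cells the median of the 7 was -0.02 at 6 h and 0.20 at 24 h, beside -0.01 and 0.03 over all genes. It was -0.13 and 0.021 with library size alone, where the median of all genes moved by -0.11 and -0.18, and among the scalings tried the sign of the Nrf1KO change turned for Psma3 and Psma6 at 6 h and for Psma2 and Psma6 at 24 h. The summed level of the 7 genes in the WT cells was 823 ± 8.50 CPM with DMSO, 1821 ± 30.3 after 6 h of CFZ and 2003 ± 37.9 after 24 h (SD, n = 3). The Nrf1KO sums were 675 ± 16.0, 662 ± 17.3 and 741 ± 49.9 CPM. The last group had the largest SD. Its libraries shared an order, replicate 1 being the lowest for 7 of 7 members (695 CPM in sum) and replicate 3 the highest for 7 of 7 (794 CPM). The SDs of the single genes were also larger there than in Nrf1KO DMSO, except for Psma1 (3.32 against 4.64 CPM). The cause was not tested.

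Between 6 h and 24 h the ring did not move as a block in the WT cells. Psma5 rose further, 1.28-fold (log2 0.35, standard error 0.039, edgeR adjusted p = 1.8e-09), as did Psma3 (log2 0.23, standard error 0.037, edgeR adjusted p = 1.3e-06) and Psma4 (log2 0.17, standard error 0.037, edgeR adjusted p = 1.5e-04). Psma2 was called higher too (log2 0.10, edgeR adjusted p = 0.0181), which makes 4 of 7 beside 36.9% of all genes called higher. The call of Psma2 was lost with upper-quartile scaling (0.075), without a filter on low counts (0.074) and when any of the 6 libraries other than WT CFZ 24 h replicate 1 was left out (log2 0.044 to 0.096). Psma1 and Psma7 differed by 0.07 and 0.07, with 95% intervals of -0.00 to 0.14 and -0.00 to 0.14. Psma6 differed by -0.09 (-0.18 to -0.01). None passed the threshold, although Psma6 was called lower in 6 of 13 alternatives, Psma1 higher in 2 and Psma7 higher in 1. With library size alone both Psma1 and Psma7 were called higher (log2 0.095 and 0.096, edgeR adjusted p = 0.0174 and 0.0214). Nrf1KO cells had 4 of 7 higher at 24 h than at 6 h, beside 38.7% of all genes, with Psma7 at 0.38, Psma5 at 0.33, Psma3 at 0.24 and Psma2 at 0.20 on the log2 scale, standard errors 0.042 to 0.049 and edgeR adjusted p from 1.0e-08 to 1.2e-04. These 4 were called in all 13 alternatives. Psma4 had -0.09 (95% interval -0.18 to -0.00), and Psma1 and Psma6 0.04 and 0.04, not past the threshold.

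The lines already differed in DMSO. Psma1 was 1.46-fold lower in the Nrf1KO cells (log2 -0.55, standard error 0.042, edgeR adjusted p = 1.3e-12) and Psma7 1.37-fold lower (log2 -0.45, standard error 0.043, edgeR adjusted p = 2.0e-10). Psma5, Psma6, Psma3 and Psma4 were lower by smaller amounts, with log2 differences of -0.31, -0.26, -0.21 and -0.20, standard errors 0.040 to 0.047 and edgeR adjusted p from 8.4e-07 to 6.0e-05. Psma2 differed by -0.07 (95% interval -0.15 to 0.02), not past the threshold. Thus 6 of 7 were called lower, beside 29.1% of all genes, and in those 6 every Nrf1KO library lay under every WT library, as in 31.8% of all genes.

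After CFZ the gap was wider for each member. All 7 were called lower in the Nrf1KO cells at 6 h, beside 30.8% of all genes, and at 24 h, beside 36.4%, with no overlap between the lines for any of them. All Nrf1KO libraries lay under all WT libraries in 32.8% of all genes at 6 h and in 36.7% at 24 h. At 6 h the difference ran from 2.05-fold for Psma2 (log2 -1.04, standard error 0.043, edgeR adjusted p = 1.1e-19) to 3.76-fold for Psma7 (log2 -1.91, standard error 0.043, edgeR adjusted p = 2.5e-26). At 24 h it ran from 1.92-fold for Psma2 (log2 -0.94, standard error 0.040, edgeR adjusted p = 1.4e-19) to 3.61-fold for Psma1 (log2 -1.85, standard error 0.040, edgeR adjusted p = 2.8e-27). Psma4, which had differed little in DMSO, was 3.07-fold lower at 24 h.

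The difference between the lines in the response to CFZ was tested as the interaction of line and CFZ. It was negative and called for 7 of 7 members at 6 h, beside 18.4% of all genes called lower, and for 7 of 7 at 24 h, beside 30%. At 6 h it was largest for Psma7 (log2 -1.46, standard error 0.061, edgeR adjusted p = 1.6e-18) and smallest for Psma6 (log2 -0.92, standard error 0.068, edgeR adjusted p = 1.2e-12). At 24 h it was largest for Psma4 and Psma5 (log2 -1.41 and -1.41, standard errors 0.056 and 0.062) and smallest for Psma6 (log2 -0.79, standard error 0.066, edgeR adjusted p = 7.1e-12). For Psma4 this combined the WT rise with the Nrf1KO fall, while for Psma7 the interaction was smaller at 24 h (-1.15) than at 6 h beside the late Nrf1KO rise. The medians of the 7 were -1.15 at both times, beside 0.02 and 0.0049 over all genes, and all 14 interactions were called in each of their 19 alternative fits.

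To compare the subunits with each other, each gene's log2 CPM was set against the mean of the other 6 in the same library, a ratio in which library scaling cancels. Both CFZ times were joined for an exact test, 6 libraries against 3, because 3 against 3 cannot give a two-sided p under 0.10. In the WT cells Psma5, Psma7 and Psma1 gained on the rest with CFZ, by 0.39, 0.32 and 0.32 on the log2 scale. Psma6, Psma2 and Psma4 lost ground, by -0.36, -0.35 and -0.26. Each of these 6 had no overlap between CFZ and DMSO libraries, and each had p = 0.0238 by the two-sided exact permutation test, the smallest this design can give, and 0.0333 after Benjamini-Hochberg adjustment over the 21 tests of subunits. Psma3 moved by -0.07, with overlap (exact permutation p = 0.190, adjusted 0.222). Set against the median of the other 6 instead, the gain of Psma1 was 0.16 and no longer passed (exact permutation adjusted p = 0.0588), while Psma3 lost 0.17 and did (exact permutation adjusted p = 0.0313), and the other 5 kept their calls. The positions shifted between the times as well, Psma5 going from -0.24 ± 0.018 in DMSO to 0.021 ± 0.038 and 0.28 ± 0.030 after 6 h and 24 h, and Psma6 from -0.14 ± 0.014 to -0.36 ± 0.040 and -0.62 ± 0.033 (SD, n = 3).

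In the Nrf1KO cells Psma4 lost 0.42 against the rest with CFZ, Psma2 lost 0.10 and Psma3 gained 0.16 (each exact permutation p = 0.0238, adjusted 0.0333). Psma4 went from 0.36 ± 0.027 in DMSO to 0.086 ± 0.047 and -0.21 ± 0.021 after 6 h and 24 h (SD, n = 3). The shifts of Psma1, Psma5, Psma6 and Psma7 were 0.16, 0.10, -0.03 and 0.14, each with overlap between DMSO and CFZ libraries (exact permutation adjusted p from 0.0938 to 0.775). Against the median of the other 6, Psma4 and Psma2 kept their calls, the gain of Psma3 was 0.064 and did not pass (exact permutation adjusted p = 0.275), and that of Psma1 was 0.20 and passed (exact permutation adjusted p = 0.0313). Across treatments, with the labels of the lines permuted within each treatment, Psma2, Psma6 and Psma3 stood higher against the rest in the Nrf1KO than in the WT cells, by 0.44, 0.26 and 0.25. Psma1, Psma7 and Psma5 stood lower, by -0.41, -0.31 and -0.22. The exact permutation p was 0.00025, the smallest possible here, for all of these but Psma5 (p = 0.0015), and 0.00105 and 0.00525 after adjustment. Psma4 differed by -0.0044 against the mean of the other 6 (exact permutation p = 0.924) but by 0.10 against their median (exact permutation adjusted p = 0.0068), so whether its position differed between the lines depends on the reference, while the other 6 kept their direction and calls. The 21 ratios are not independent, since each gene enters the reference of the others.

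**Figure D3:**
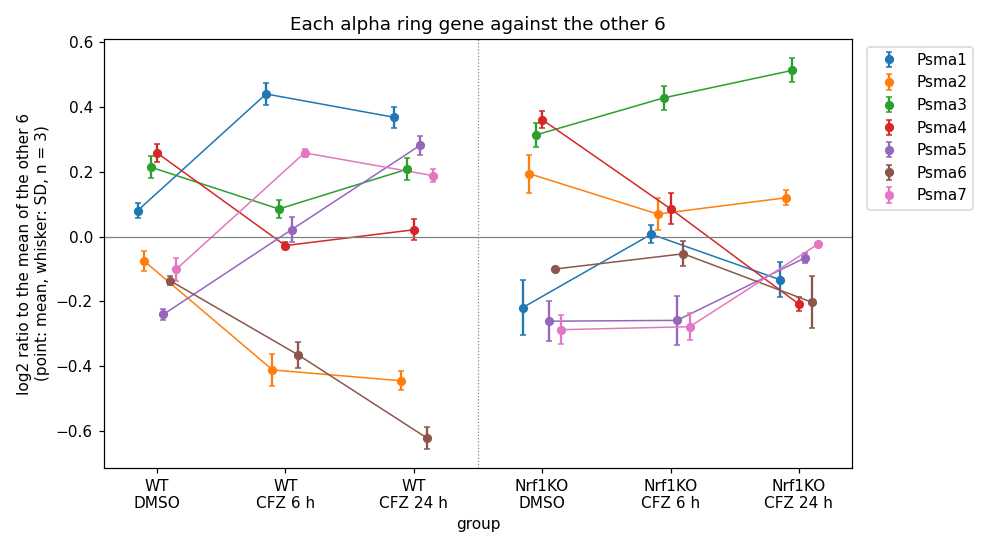
Log2 ratio of each alpha ring gene to the mean of the other 6 in the same library (vertical axis), by group (horizontal axis). Points are means, whiskers the SD of 3 libraries, and lines join the groups of a line. In the WT cells Psma5 climbs from -0.24 to 0.28 and Psma6 goes from -0.14 to -0.62, and in the Nrf1KO cells Psma4 goes from 0.36 to -0.21.

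Levels can be set between genes only per transcript length. Per kilobase of the longest coding transcript, WT DMSO cells had from 38.4 ± 1.12 CPM (Psma2) to 117 ± 2.67 CPM (Psma4). After 24 h of CFZ the levels ran from 73.9 ± 2.62 (Psma2) to 290.4 ± 10.6 (Psma1), as mean and SD of 3 libraries. The order rests on the transcript chosen, because the longest transcripts of Psma2 and Psma3, 2911 and 2846 bases, are much longer than those of the other genes. Per kilobase of coding sequence, which differs little in length between the 7 (702 to 789 bases), the WT DMSO levels ran from 140.1 ± 1.22 (Psma5) to 174 ± 3.97 (Psma4), and at 24 h from 263 ± 4.53 (Psma6) to 458 ± 16.4 (Psma5). The spread of the 7 within a library, as the SD of their log2 level per kilobase of the longest coding transcript, was 0.625 in WT DMSO and 0.763 with CFZ, a difference of 0.138 (exact permutation p = 0.0238, adjusted 0.0357 over 3 tests). Per kilobase of coding sequence the difference was 0.142 (exact permutation adjusted p = 0.0714), and with the union of exons as the length it was 0.0592 (exact permutation adjusted p = 0.0357). In the Nrf1KO cells the difference was -0.0387 (exact permutation p = 0.143). Between the lines it was -0.203 (exact permutation p = 0.00025, adjusted 0.00075), -0.0492 with the union of exons (exact permutation adjusted p = 0.0218), but 0.00637 per kilobase of coding sequence (exact permutation p = 0.786), so no direction can be given for it.

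The other parts of the proteasome give the ring its context. Called lower in the WT cells were 36.2% of all genes at 6 h and 40.5% at 24 h. The beta ring, which holds the catalytic subunits, had 7 of 7 genes called higher in the WT cells at both times, with medians of 1.07 and 1.40 on the log2 scale, beside 1.02 and 1.26 for the alpha ring. At 24 h its lowest member was Psmb5, which encodes the chymotrypsin-like subunit that CFZ targets (0.77), and its highest was Psmb3 (2.07). With Nrf1 absent 0 beta genes were called higher and 2 lower at 6 h, and 5 higher and 0 lower at 24 h, with medians of 0.01 and 0.30. The ATPase ring of the 19S cap, which docks on the alpha ring, had 6 of 6 called higher in the WT cells at both times (medians 1.45 and 1.49). At 24 h it ran from 1.07 for Psmc1 to 2.04 for Psmc4. Of its genes in the Nrf1KO cells, 4 were called higher and 0 lower at 6 h, and 5 higher and 1 lower at 24 h (medians 0.25 and 0.41). Of the 16 other 19S genes, 14 were called higher and 1 lower at 6 h and 15 higher and 1 lower at 24 h in the WT cells (medians 1.17 and 1.52), from -0.18 for Shfm1 to 1.94 for Psmd4 at 24 h. The Nrf1KO cells had 10 called higher and 3 lower at each time (medians 0.13 and 0.35). The median interaction at 24 h was -0.99, -1.15 and -0.93 for these 3 lists, beside -1.15 for the alpha ring, and no test of a difference between the lists was made.

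The chaperones that help to build the ring moved in both directions, Pomp and Psmg3 up and the others down in the WT cells at 24 h. Psmg1 to Psmg4 form the complexes on which alpha subunits assemble, and Pomp helps to join the beta ring to it. In the WT cells Pomp rose at 6 h (log2 0.79, standard error 0.049, edgeR adjusted p = 2.9e-15) and at 24 h (1.34, standard error 0.048, edgeR adjusted p = 3.1e-22). Psmg3 was called higher at both times (0.36 and 0.34). Psmg1 fell at both times (-0.40 and -1.21), as did Psmg2 (-0.19 and -0.64), while Psmg4 had -0.14 at 6 h, not past the threshold, and fell at 24 h (-0.76). Psmg1, Psmg2 and Psmg4 fell at both times in the Nrf1KO cells too, to -1.30, -0.91 and -0.55 at 24 h, and Psmg3 had 0.04 and 0.06, not past the threshold. Pomp fell at 6 h (-0.43, standard error 0.053, edgeR adjusted p = 1.5e-08) and rose at 24 h (0.26, standard error 0.048, edgeR adjusted p = 7.3e-06) in that line. Its interaction was -1.22 at 6 h and -1.08 at 24 h, within the range of the alpha ring genes. Of the 3 immunoproteasome genes 2 were tested, Psmb9 and Psmb10, and neither was called higher in a CFZ comparison. Against DMSO, Psmb9 was called lower at 6 h and 24 h, by log2 -0.52 and -1.52 in the WT cells. In the Nrf1KO cells it had -0.62 and -0.88, also called. Psmb10 was called lower in the Nrf1KO cells only, at -0.23 and -0.22. Psma8, the alpha subunit of germ cells, had 0 counts in all 18 libraries.

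**Figure D4:**
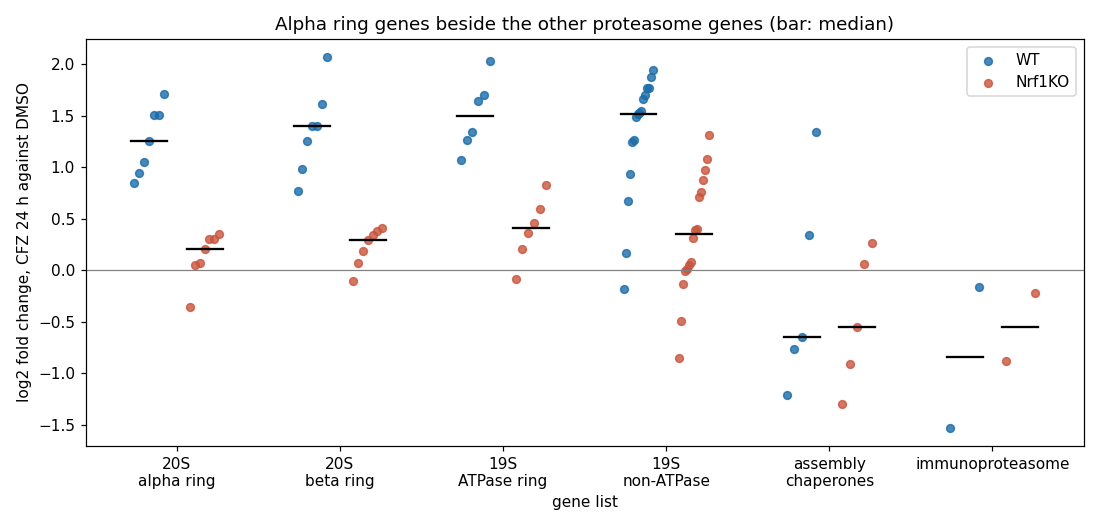
Log2 fold change of CFZ at 24 h against DMSO (vertical axis) of each proteasome gene tested, grouped by list (horizontal axis), in WT (blue) and Nrf1KO cells (red). Bars are the medians of the lists. The alpha ring lies between 0.85 and 1.71 in WT and between -0.36 and 0.36 in Nrf1KO cells, and the assembly chaperones run from -1.21 to 1.34 in WT cells.

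For a comparison of profiles, the log2 CPM of each gene was standardized to the same mean and SD over the 18 libraries. Each alpha ring gene tracked the mean standardized profile of the other 6, with Pearson's r from 0.961 for Psma4 to 0.994 for Psma7. Of the 10253 genes whose mean count was 50 or more, the 10 most like the mean standardized profile of the 7 were Psmb4 (r = 0.998), Psmc3, Psmb2, Psmd3, Cops5, Ubr3, Kif1b, Psmd12, Tbk1 and Psmb3 (r = 0.991). Of these 10, 6 are other proteasome genes, while Cops5 encodes a subunit of the COP9 signalosome, Ubr3 a ubiquitin ligase, Kif1b a kinesin motor and Tbk1 a protein kinase. Nfe2l1 itself ranked 1000 with r = 0.738. The 18 points come from 6 groups that all these genes share, so these values mostly compare 6 group means and are descriptions.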

How the data were processed

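Stranded mRNA libraries of 18 NIH-3T3 cultures were sequenced, and the authors processed the reads with STAR and DESeq2 within RNA Express. They deposited raw read counts for 23420 gene symbols without normalization, 6577 of them at 0 throughout. Genome build, annotation and use of strand are not given in the sources used here. Columns were matched to samples by the names in the labels.

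From these counts, edgeR 4.0.16 (R 4.3.3) was run with filterByExpr (10 counts at least, 15 in total), TMM scaling and a single quasi-likelihood model of the 6 groups, with Benjamini-Hochberg adjustment over 11762 genes. Standard errors are the log2 fold change over the square root of F. Ratios between subunits used log2 CPM (prior count 0.5) and exact permutation tests over libraries (SciPy 1.17.1). Biological variation was low (common coefficient 3.13%), and small changes pass the threshold. Scripts were tested on simulated counts. All 7 members, Nfe2l1, the 5 chaperones, the lowest and highest gene of each proteasome list in WT cells at 24 h and the 10 genes most like the members are named by rule. Psmb9, Psmb10, Psma8 and the markers come from fixed lists. The members and lists were chosen with earlier results of these data known. Alternatives were DESeq2 1.42.0, other scalings and filters, fewer groups, a replicate block, a minimum fold of 2 and each library left out.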

Additional observations from a re-analysis of the deposited data

Results flagged for a closer look

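For all 7 alpha ring genes the response to CFZ differed between the WT and Nrf1KO lines, by the test of the interaction itself (edgeR's quasi-likelihood test, Benjamini-Hochberg adjusted). At 6 h the interaction on the log2 scale was -0.92 for Psma6, -0.97 for Psma2, -1.15 for Psma4, -1.46 for Psma7, -1.39 for Psma5, -1.28 for Psma1 and -0.95 for Psma3. At 24 h it was -0.79 for Psma6, -0.87 for Psma2, -1.41 for Psma4, -1.15 for Psma7, -1.41 for Psma5, -1.31 for Psma1 and -0.95 for Psma3. Both times share the DMSO libraries of their line. No group had more than 3 libraries, so single libraries were not tested for standing apart.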

How the results depend on the processing

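The rises of all 7 genes in the WT cells, the lower levels in the Nrf1KO cells after CFZ and the interactions kept their direction and their calls under every alternative fit, apart from a minimum fold of 2. That rule left 4 members higher in WT cells at 6 h and 5 at 24 h, beside 1133 and 2939 of 11762 genes called in either direction. It left 6 lower in Nrf1KO cells than in WT at 24 h (all but Psma2), beside 1440 genes. At each time 4 interactions were left, beside 327 genes at 6 h and 1012 at 24 h. In Nrf1KO against WT in DMSO 0 members were left, beside 584 genes. The same held for CFZ against DMSO in Nrf1KO cells (889 genes at 6 h, 3137 at 24 h) and between 6 h and 24 h in WT (1421) and Nrf1KO cells (1856). Upper-quartile scaling and library size alone moved the median of all genes by up to -0.18 and shifted the small changes. Under them the median of the 7 was 0.91 and 0.89 in WT at 6 h, 1.12 and 1.15 in WT at 24 h (1.20 without a filter), 0.075 and 0.13 for 24 h against 6 h in WT (0.074 without a filter), -0.095 and -0.13 in Nrf1KO at 6 h, 0.095 and 0.021 in Nrf1KO at 24 h, and -1.31 and -1.29 for Nrf1KO against WT at 6 h. In Nrf1KO cells 0 members were higher at 6 h under either scaling, beside 3376 and 3036 of 11762 genes, in the same order. With library size alone 4 members were lower at 6 h, beside 5298 of 11762 genes, and 3 at 24 h, beside 5857. Under either scaling 1 member was lower at 24 h than at 6 h, beside 4765 and 5020 genes. Beside these numbers the counts are no result about the 7 genes. Signs turned in Nrf1KO cells for Psma6 at 6 h (-0.0053 with DESeq2, -0.061 with upper-quartile scaling, -0.099 with library size alone, -0.036 without a filter) and 24 h (-0.056 and -0.13 with the 2 scalings), Psma3 at 6 h (-0.0015 and -0.040), Psma2 at 24 h (-0.035 and -0.11), and Psma1 and Psma6 between 6 h and 24 h with library size alone (-0.031 and -0.031). The share of called genes that were higher went from 49.6% to 35.4% in WT at 6 h, from 49.7% to 36.4% in Nrf1KO at 6 h and from 52.0% to 41.6% in Nrf1KO at 24 h with library size alone, from 46.9% to 57.7% and from 49.8% to 60.8% for Nrf1KO against WT in DMSO and at 6 h, and, with upper-quartile scaling, from 49.6% to 37.9% in WT at 6 h.

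Replicate numbers did not mark pairs of libraries (mean correlation of same-numbered deviations 0.0122 over 45 pairs, 0 of them over 0.1). With the replicate number as a block 1 member was lower in WT at 24 h than at 6 h, Psma6 (log2 -0.093, edgeR adjusted p = 0.0432), beside 4219 of 11762 genes. The block changed no other call. Also 1 was lower with upper-quartile scaling (beside 4410 of 11762 genes), without a filter (4418 of 16843) and with the compared groups only (4241 of 11130). Leaving out 1 library gave 0 to 1 members lower and a median of 0.044 to 0.13 for 24 h against 6 h in WT, beside 3980 to 4343 genes lower. It gave 1 to 2 lower in Nrf1KO at 6 h, beside 3795 to 3982 genes. Between the times in Nrf1KO it gave 0 to 1 lower, beside 4301 to 4533 genes. In these fits 11863 to 11894 genes were tested. Psma6 was called lower between the times in WT without WT CFZ 6 h replicate 1 or 3 (-0.13 and -0.16), Psma1 higher without WT CFZ 24 h replicate 1 (0.096), and in Nrf1KO cells Psma4 lower without Nrf1KO CFZ 24 h replicate 3 (-0.15) and Psma6 higher without Nrf1KO CFZ 24 h replicate 1 (0.102 against 6 h and 0.096 against DMSO). Uncalled values crossed 0 in Nrf1KO cells for Psma7 (-0.048 to 0.019) and Psma5 (-0.073 to 0.026) at 6 h, Psma2 (-0.00086 to 0.093) and Psma6 (-0.054 to 0.096) at 24 h and Psma6 between the times (-0.048 to 0.102).

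With a library left out, the exact tests of subunit ratios with CFZ say nothing of stability, because they have fewer arrangements (smallest p 0.0714 for 2 against 6 and 0.0357 for 3 against 5, before adjustment). They gave 0 calls in WT cells and 0 to 4 in Nrf1KO cells, while the differences in WT cells stayed at 0.36 to 0.43 for Psma5, 0.30 to 0.34 for Psma7, 0.31 to 0.34 for Psma1, -0.39 to -0.32 for Psma6, -0.37 to -0.34 for Psma2 and -0.27 to -0.25 for Psma4. Against the mean of the other 6, Psma4 differed between the lines by -0.0103 to 0.0045 when a library was left out, and Psma6 with CFZ in Nrf1KO cells by -0.051 to 0.0056. Against their median Psma4 differed between the lines by 0.10 (exact permutation adjusted p = 0.0068). The spread of the 7 levels in WT cells, 0.138 wider with CFZ, was 0.135 to 0.142 wider when a library was left out and 0.142 wider per coding length (exact permutation adjusted p = 0.0714), and in Nrf1KO cells -0.0340 with the union of exons and -0.158 as a range (each exact permutation p = 0.0476). Between the lines it was 0.00637 per coding length, an alternative chosen after seeing the data. The cause of these shifts was not tested.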

Other observations

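Read in ring order, the subunits with the smallest rise in the WT cells at 6 h were neighbours, Psma6 (log2 0.94), Psma2 (0.84) and Psma4 (0.89), as were those with the largest, Psma7 (1.44), Psma5 (1.36) and Psma1 (1.44), with Psma3 (1.02) between them. At 24 h the same 3 were the smallest, Psma6 at 0.85, Psma2 at 0.95 and Psma4 at 1.06, and the same 3 the largest, Psma7 at 1.51, Psma5 at 1.71 and Psma1 at 1.51, with Psma3 at 1.26. Both times share the DMSO libraries. This order was noticed after the values were seen and was not tested.

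Psma4 and its neighbour Psma7 can also be read as shares of the summed CPM of the 7 genes. In the Nrf1KO cells Psma4 took 17.5 ± 0.295% of it in DMSO, 14.9 ± 0.397% at 6 h and 12.5 ± 0.148% at 24 h (SD, n = 3). Psma7 took 11.9 ± 0.331%, 12.0 ± 0.320% and 13.9 ± 0.0374%. In the WT cells Psma4 took 16.6 ± 0.266%, 13.9 ± 0.0869% and 14.2 ± 0.285%, and Psma7 took 13.4 ± 0.280%, 16.4 ± 0.108% and 15.6 ± 0.186%. The mean share of Psma4 was thus lower and that of Psma7 higher with CFZ in both lines, by little for Psma7 in the Nrf1KO cells at 6 h, while the level of Psma4 was higher with CFZ in the WT and lower in the Nrf1KO cells. This was not particular to the pair. The mean shares of Psma1 and Psma5 were also higher with CFZ in both lines, by little for Psma5 in the Nrf1KO cells at 6 h. That of Psma2 was lower in both. The shares of a library add up to a whole, so they are not independent. These shares compare each gene with itself across groups, since CPM of genes of different length cannot be ranked.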
